A study of Homo sapiens with 15 samples.

Results

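HCT116 cells, a human colorectal carcinoma line of wild-type genotype per the labels, were exposed for 72 h to an extract of oil production waste products (OPWPs) from Sicily (SE) or from Apulia (AE), each at 0.0154 mg/mL, and the 3 SE libraries were set directly against the 3 AE libraries. OPWPs are the pulp and wastewater left by olive milling, rich in polyphenols such as hydroxytyrosol (HTyr). The comparison takes 6 of the 15 libraries of the series, and the 3 untreated libraries were read beside it. No vehicle is named for the untreated cells. The dose is equal by mass, and the sources used here do not state how much of each phenol a given mass of extract holds, so the origin of an extract and its phenol dose cannot be told apart. Poly(A) RNA was sequenced, and the values are TPM, an abundance corrected for transcript length and relative to the whole library. The study states an average depth over its libraries, but TPM do not keep the depth of each, so counting intervals are not given. Tests covered the 14899 of 60664 genes that reached 1 TPM in 3 or more of the 15 libraries.

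Bracketed codes in the sample titles give the Sicily libraries the code that the table's columns use for another region, whereas the sample descriptions and the column names point to SE. Groups were taken from the descriptions. Were the bracketed codes correct instead, the columns used here as SE would belong to the Tuscany extract, while AE would stay the same. The titles themselves name Sicily in words, and columns named SE in the supplementary table equal those used here in all 1539 genes compared (within 0.0051 TPM), whereas no column of another library matched in more than 21. The 3 libraries of a group are called biological replicates, and the study describes its data in general as independent experiments, with no account of the cultures behind these libraries, so every p-value rests on the spread between these libraries, which may be technical. Being bulk RNA, they cannot tell fewer cells of a kind from less RNA per cell. Epithelial markers were abundant (EPCAM 303 to 345 TPM in SE, 317 to 339 in AE and 308 to 346 in untreated libraries), and the summed list was at 2307 to 2490 TPM in SE, 2487 to 2645 in AE and 4196 to 4243 in untreated libraries. CDH1 (25.28 to 31.79 TPM in SE, 32.3 to 39.82 in AE) and KRT18 (521 to 584 TPM in SE, 684 to 726 in AE) did not overlap between the extracts. EPCAM, KRT8, KRT19 and CDX2 did overlap, and SE and AE did not overlap in 32.7% of all genes tested. Of the intestinal markers, CDX2 was at 4.67 to 5.81 TPM in SE, 4.88 to 5.2 in AE and 3.04 to 6.56 in untreated libraries. CDX1 was at 0 in all SE and AE libraries and VIL1 at 0.07 TPM or less. Summed leukocyte markers reached 0.14 TPM in SE and 0.13 TPM in AE libraries, summed endothelial markers 0.07 TPM in SE and 0.14 TPM in AE, and of the fibroblast markers COL1A1 was at 4.74 to 6.17 TPM in SE and 4.06 to 8.24 TPM in AE, with COL1A2, DCN and PDGFRA at 0 in both. Cytosolic ribosomal protein genes (86 genes) held 21.3 ± 1.37% of all TPM in SE and 24.2 ± 0.948% in AE libraries, against 27.9 ± 1.196% in untreated ones (SD, n = 3 each), and SE and AE did not overlap (two-sided p = 0.1 by exact permutation, the lowest possible with 3 libraries a group). TPM are shares of a whole, so this difference stands beside every list below, and its part in their values was not tested. Transcripts of the mitochondrial genome made up 17.7 ± 2.27% of TPM in SE and 17.5 ± 0.683% in AE (p = 1, exact permutation test), and SE replicate 1 stood apart from the other SE libraries at 20.3%.

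The gene lists below cover stress and growth programmes that cells control by transcription. The aryl hydrocarbon receptor (AhR) is activated by planar aromatic compounds and induces cytochrome P450 genes. Heat shock factor 1 raises cytosolic chaperones when proteins misfold, whereas ATF6, IRE1 (ERN1) and PERK (EIF2AK3) sense misfolded proteins in the endoplasmic reticulum (ER), and PERK and its sister kinases raise ATF4, the activator of amino acid genes. SREBP2 (SREBF2) induces cholesterol synthesis when sterols run low, and E2F factors induce the genes of DNA replication.

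With SE, 703 of the 14899 genes (4.72%) differed from AE, that is, they passed a Benjamini-Hochberg adjusted p under 0.05 in limma and a fold difference over 1.5 in either direction. Of these, 289 (1.94%) were higher in SE and 414 (2.78%) lower. Differences are SE minus AE on the log2(TPM + 0.5) scale, which understates those of genes with low TPM. The median over all genes tested was 0.01 and the median standard error 0.13. Libraries of SE and AE did not overlap in 32.7% of the genes. Most differences ran further from the untreated level in SE than in AE. Among the 289 higher genes, the untreated mean lay below both treated means in 240 (83.0%), and among the 414 lower genes it lay above both in 271 (65.5%), while over all genes tested it lay below both in 49.5% and above both in 34.7%. In 129 of the lower genes (31.2%) and 43 of the higher ones (14.9%) it lay between the SE and AE means. SE passed the thresholds against untreated cells and AE did not in 123 of the higher (42.6%) and 215 of the lower genes (51.9%). Both passed in the same direction in 136 (47.1%) and 112 (27.1%), and AE alone passed in 6 (2.1%) and 30 (7.2%). Over all genes tested these shares were 13.8%, 14.1% and 2.4%, so SE alone passed more often than AE alone there too. With SE 2532 genes passed above and 1636 below untreated cells, and with AE 1601 and 865. Both comparisons share the untreated libraries, so these counts are a description.

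**Figure D1:**
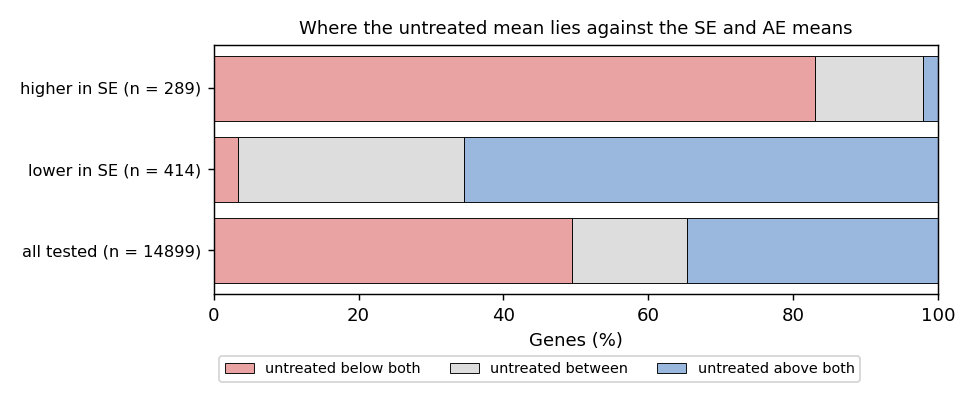
Share of genes (x axis, percent) whose untreated mean TPM lies below, between or above the SE and AE means, for the genes higher in SE, lower in SE, and all genes tested. The untreated mean lies below both for 83.0% of the genes higher in SE and above both for 65.5% of those lower in SE.

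Some targets of the AhR were higher in SE. CYP1A1, a cytochrome P450 that oxidizes aromatic hydrocarbons (ENSG00000140465, chromosome 15, 74719542 to 74725536 on GRCh38), had 17.6, 21.8 and 23.5 TPM in SE, against 3.56, 3.67 and 4.11 TPM in AE and 0.600 ± 0.210 TPM in untreated cells (SD, n = 3). Every SE library was above every AE library, and the log2 difference was 2.32 (standard error 0.17, adjusted p = 8.89e-07), the largest among the higher genes that have a name, a mean of at least 5 TPM in SE and no overlap. The related enzyme CYP1B1 had 3.22, 2.96 and 3.19 TPM in SE, against 1.05, 1.17 and 1.22 TPM in AE, a difference of 1.14 (standard error 0.16, adjusted p = 0.000201). TIPARP, an ADP-ribosyltransferase that restrains the receptor, averaged 72.7 ± 4.86 TPM in SE and 40.4 ± 3.98 TPM in AE (SD, n = 3 each), a difference of 0.84 (adjusted p = 0.000624). AHRR, the repressor of the receptor, averaged 12.1 ± 0.932 TPM in SE and 4.84 ± 0.462 TPM in AE, a difference of 1.24 (standard error 0.37, adjusted p = 0.0325), and without any 1 of the SE or AE libraries its adjusted p lay above 0.05 (0.0609 to 0.0935). The transcripts of the receptor itself did not pass, with 95% intervals of -0.03 to 0.48 for AHR and -0.31 to 0.09 for its partner ARNT. In all, 4 of the 8 measured members of the list passed, all higher in SE, and 4 did not. The median of the 8 was 0.55, and the 4 that passed also stood above untreated cells past the thresholds with SE and with AE. Such a rise was seen in 17.0% of all genes tested with SE and in 10.7% with AE.

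The receptor's partner complex binds the letters GCGTG, which were searched on both strands. Of 27305 RefSeq promoters (GRCh38.p14, 250 bases before to 50 after the start, 1 per gene), 36.3% hold them, as did all 3 differing members that have a promoter there. CYP1A1 is shown because its difference was the largest: the 250 bases before its start (chr15:74725529-74725778, minus strand, 5′ to 3′) hold 1 match, in capitals, beginning 57 bases before the start.
CYP1A1: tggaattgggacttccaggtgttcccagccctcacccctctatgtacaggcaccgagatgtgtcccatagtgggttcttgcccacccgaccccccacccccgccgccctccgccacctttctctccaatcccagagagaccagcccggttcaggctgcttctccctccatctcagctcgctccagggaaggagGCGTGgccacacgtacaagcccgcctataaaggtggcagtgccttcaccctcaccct

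Most genes of the antioxidant response, which phenols also induce, did not pass between the extracts. NQO1, a quinone reductase driven by both NFE2L2 and the AhR, had 1396, 1425 and 1396 TPM in SE, against 1384, 1317 and 1400 TPM in AE and 324 ± 7.02 TPM in untreated cells. SE and AE overlapped, and the 95% interval of the log2 difference was -0.06 to 0.14. HMOX1, the heme oxygenase, averaged 38.2 ± 2.45 TPM in SE, 42.3 ± 3.71 TPM in AE and 15.4 ± 1.32 TPM in untreated cells, with an interval of -0.34 to 0.05 between SE and AE. NFE2L2 (-0.19 to 0.09) and its inhibitor KEAP1 (-0.07 to 0.42) did not pass either. Of 31 measured members of the list, 1 was higher in SE and 2 lower (9.68%, beside 4.72% of all genes tested), and the median was -0.03. That median covers differences both ways: SE libraries lay above all AE libraries in 9 members and below them in 10. Over all genes tested, SE and AE did not overlap in 32.7%. With median-ratio scaling or quantile normalization none was higher. The lower genes are membrane transporters. SLC7A11, the cystine importer that feeds glutathione synthesis and is also a target of ATF4, had 39.4, 47.8 and 40.5 TPM in SE, against 67.9, 73.5 and 70.0 TPM in AE and 33.9 ± 3.18 TPM in untreated cells, a difference of -0.72 (standard error 0.09, adjusted p = 0.000136). SE lay near the untreated level and AE above it. ABCC3, an export pump for conjugated phenols and bile acids, averaged 23.5 ± 2.31 TPM in SE and 49.4 ± 4.21 TPM in AE, with 37.1 ± 4.56 TPM in untreated cells between them, a difference of -1.06 (standard error 0.12, adjusted p = 3.34e-05).

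**Figure D2:**
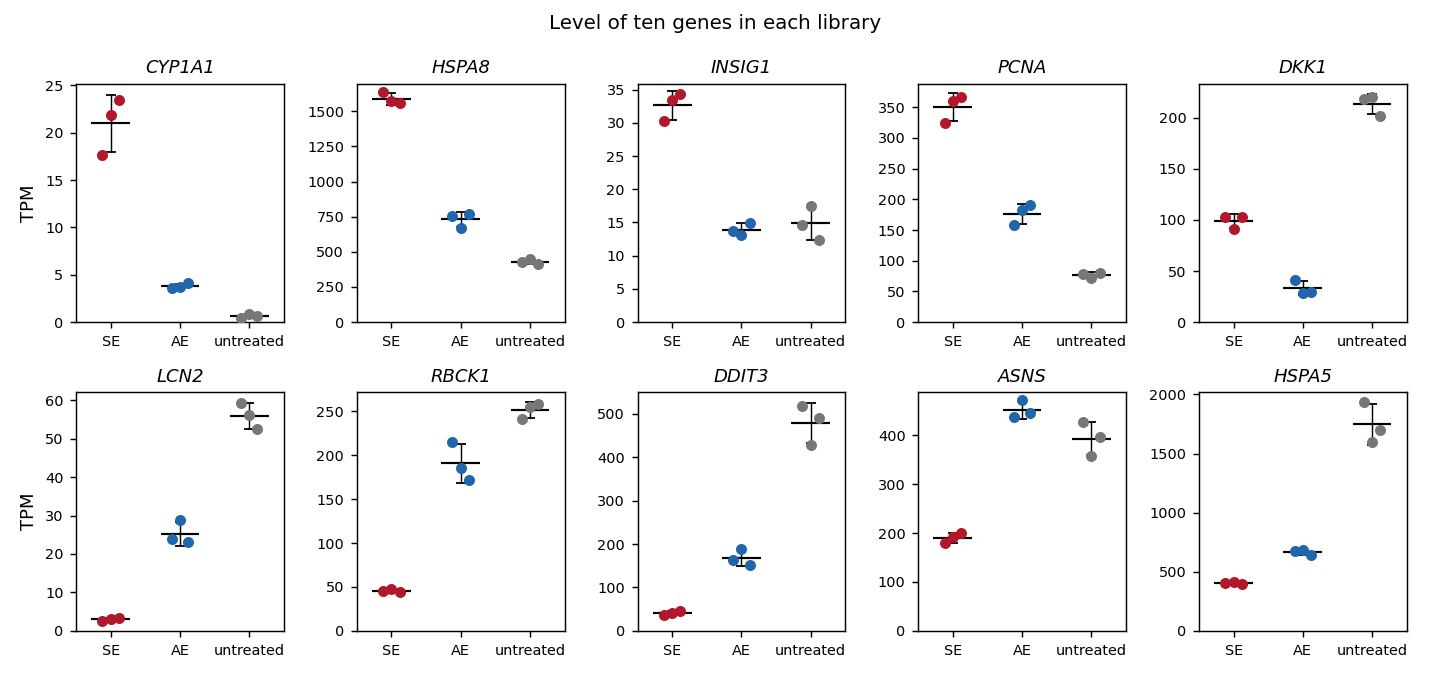
TPM (y axis, linear from 0) of 10 genes in each SE, AE and untreated library; points are libraries, the long line is the mean and the bar the SD of 3 libraries. SE lies above AE in all its libraries for CYP1A1, HSPA8, INSIG1, PCNA and DKK1, and below it for LCN2, RBCK1, DDIT3, ASNS and HSPA5, with the untreated level between or outside depending on the gene.

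Some cytosolic and mitochondrial chaperones were higher in SE. HSPA8, the constitutive HSP70 (ENSG00000109971, chromosome 11, 123057489 to 123063230), had 1635, 1571 and 1555 TPM in SE, against 754, 672 and 769 TPM in AE and 430 ± 19.2 TPM in untreated cells. All SE libraries lay above all AE libraries, by a log2 difference of 1.12 (standard error 0.08, adjusted p = 6.27e-07). HSPE1, the small subunit of the mitochondrial chaperonin, had 1195, 1145 and 1098 TPM in SE and 550, 504 and 591 TPM in AE, a difference of 1.06 (standard error 0.07, adjusted p = 2.3e-07). Its partner HSPD1 differed by 0.71, the inducible HSP90AA1 by 0.85 and the constitutive HSP90AB1 by 0.75 (adjusted p from 5.15e-07 to 4.55e-06). HSPH1, an HSP110 that exchanges nucleotides on HSP70, averaged 102 ± 5.07 TPM in SE and 49.6 ± 3.66 TPM in AE, with 36.3 ± 3.06 TPM in untreated cells, a difference of 1.04 (adjusted p = 0.000436). CCT8, a subunit of the cytosolic chaperonin, differed by 0.64 (adjusted p = 4.58e-06), and by 0.54 with quantile normalization, under the fold threshold.

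Of the 38 measured members, 11 passed (28.9%, beside 4.72% of all genes tested), all of them higher in SE, and 27 did not. With quantile normalization 8 were higher, and with 1 library left out 10 to 12. The median was 0.43, and 34 of 38 lay above 0, as did 7728 of the 14899 genes tested. By role, 3 of 6 HSP70 and HSP110 genes passed, 4 of 8 HSP90 genes and co-chaperones, 2 of 8 subunits of the cytosolic chaperonin, 2 of 3 mitochondrial chaperones and none of 6 J proteins, which deliver clients to HSP70. The mitochondrial chaperone that did not pass lay the other way, at -0.35. Against untreated cells, 24 of the 38 passed upward with SE and 7 with AE. Over all genes tested, 17.0% passed upward with SE and 10.7% with AE. The transcripts of the heat shock factors did not pass between SE and AE, with intervals of -0.30 to 0.02 for HSF1 and -0.21 to 0.34 for HSF2.

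Heat shock factors bind repeats of GAANNTTC (searched on both strands, on which it reads the same). It stands in 6.87% of the 27305 promoters, in 10 of the 35 members of the list that have a promoter and in 2 of the 11 that differed. HSPA8 is shown as the differing chaperone with the largest difference. The 250 bases before its start (chr11:123062137-123062386, minus strand) hold 2 matches, in capitals, beginning 230 and 50 bases before the start.
HSPA8: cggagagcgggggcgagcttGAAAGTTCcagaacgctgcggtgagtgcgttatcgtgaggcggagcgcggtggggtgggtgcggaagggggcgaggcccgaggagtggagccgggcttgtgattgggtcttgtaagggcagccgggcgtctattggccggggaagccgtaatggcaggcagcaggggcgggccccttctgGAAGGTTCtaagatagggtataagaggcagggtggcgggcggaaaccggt

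Some chaperones and sensors of the ER were lower in SE. HSPA5 (BiP), the main chaperone of the ER lumen (ENSG00000044574, chromosome 9, 125234853 to 125241382), had 405, 414 and 396 TPM in SE, against 680, 683 and 639 TPM in AE and 1746 ± 175 TPM in untreated cells. Both extracts lay below the untreated level, SE further, and the difference was -0.72 (standard error 0.07, adjusted p = 5.31e-06). HYOU1, an ER member of the HSP110 family, averaged 86.6 ± 5.00 TPM in SE and 152 ± 19.6 TPM in AE (-0.81, adjusted p = 8.98e-06). Among the sensors, ATF6 had 24.5, 23.5 and 23.1 TPM in SE and 45.02, 41.1 and 41.2 TPM in AE, a difference of -0.83 (standard error 0.07, adjusted p = 3.5e-06). ERN1 averaged 5.45 ± 0.824 TPM in SE and 10.6 ± 1.15 TPM in AE (-0.91, adjusted p = 6.4e-05), whereas the interval for EIF2AK3 was -0.33 to 0.30. XBP1, the factor that ERN1 activates by splicing, differed by -0.53, under the fold threshold (adjusted p = 0.00298). SEL1L, which helps to extract misfolded proteins for degradation, differed by -0.79 (adjusted p = 0.000291). A single member was higher in SE, CALR, a calcium-binding chaperone of glycoproteins, with 638, 605 and 620 TPM in SE, against 408, 386 and 408 TPM in AE and 490 ± 40.5 TPM in untreated cells. Its difference was 0.63 (standard error 0.07, adjusted p = 2.44e-05), and 0.56 with quantile normalization, under the fold threshold. Of the 31 measured members of the list, 6 were lower in SE, 1 was higher and 24 did not pass, with a median of -0.09. The share that passed was 22.6%, beside 4.72% of all genes tested. Both treated means lay below the untreated mean in 27 of the 31, and in 34.7% of all genes tested.

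The ER stress element, CCAAT and CCACG with 9 unspecified bases between them on either strand, stands in 22 of the 27305 promoters (0.08%), in 7 of the 29 members of the ER list that have one, and in 2 of the 7 that differed. These were HSPA5 (chr9:125241344-125241593, minus strand) and CALR (chr19:12938359-12938608, plus strand), shown because they hold the same letters and differed in opposite directions. The match, in capitals, begins 66 bases before the start of HSPA5 and 225 bases before that of CALR, where it lies on the opposite strand.
HSPA5: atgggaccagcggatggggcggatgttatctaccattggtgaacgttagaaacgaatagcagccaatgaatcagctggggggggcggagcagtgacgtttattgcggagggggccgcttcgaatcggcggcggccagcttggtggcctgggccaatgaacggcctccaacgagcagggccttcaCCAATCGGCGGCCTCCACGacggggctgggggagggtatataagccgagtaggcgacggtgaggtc
CALR: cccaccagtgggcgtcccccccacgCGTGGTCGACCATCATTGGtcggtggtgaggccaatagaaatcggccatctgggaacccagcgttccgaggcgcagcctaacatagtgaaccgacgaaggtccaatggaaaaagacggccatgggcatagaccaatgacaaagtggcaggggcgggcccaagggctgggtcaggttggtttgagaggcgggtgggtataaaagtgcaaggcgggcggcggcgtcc

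ATF4 targets formed the list with the most members lower in SE. DDIT3 (CHOP), a transcription factor of the stress response (ENSG00000175197, chromosome 12, 57516588 to 57521737), had 35.8, 42.1 and 45.8 TPM in SE, against 164, 188 and 152 TPM in AE and 478 ± 46.6 TPM in untreated cells. All SE libraries lay below all AE libraries, by a log2 difference of -2.01 (standard error 0.11, adjusted p = 7.61e-08). TRIB3, a pseudokinase that holds ATF4 in check, had 35.4, 42.5 and 46.8 TPM in SE, against 140, 154 and 148 TPM in AE and 170 ± 18.3 TPM in untreated cells (-1.82, standard error 0.10, adjusted p = 1.02e-07). For TRIB3 AE lay near the untreated level and only SE passed the thresholds below it. ASNS, the asparagine synthetase, had 180, 191 and 200 TPM in SE and 437, 473 and 447 TPM in AE, with 394 ± 34.6 TPM in untreated cells between them, a difference of -1.25 (standard error 0.06, adjusted p = 5.18e-08). DDIT4, an inhibitor of mTORC1, differed by -1.31 and PPP1R15A, which directs the phosphatase that reverses the stress block on translation, by -1.49 (adjusted p = 9.2e-08 and 1.62e-07). SLC3A2, the heavy chain of amino acid transporters, averaged 306 ± 6.54 TPM in SE and 520 ± 18.7 TPM in AE (-0.76, adjusted p = 9.2e-08).

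The transcript of ATF4 itself had 572, 577 and 621 TPM in SE, against 701, 703 and 703 TPM in AE and 607 ± 15.2 TPM in untreated cells. SE and AE did not overlap, but the difference of -0.25 (standard error 0.04, adjusted p = 0.00121) was under the fold threshold; ATF4 is controlled largely at translation, which these libraries do not measure. CEBPB, a partner of ATF4 and DDIT3, differed by -0.85 (adjusted p = 7.48e-05). Of the 28 measured members, 19 were lower in SE (67.9%, beside 2.78% of all genes tested) and none higher. The median of the 28 was -0.73, and 9 did not pass. Leaving out 1 library gave 17 to 20 lower, and quantile normalization 19. Against untreated cells, 13 of the 28 passed downward with SE and 1 upward, while with AE 4 passed downward and 7 upward, and in 9 of the 28 the SE mean lay below and the AE mean above the untreated mean.

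The enzymes that make serine from glucose-derived carbon, named here after their values were seen, stood near the untreated level in SE or less far above it than in AE. PHGDH, the first of them, had 186, 182 and 193 TPM in SE, against 312, 341 and 350 TPM in AE and 174 ± 8.56 TPM in untreated cells (-0.83, standard error 0.08, adjusted p = 1.49e-05). PSAT1, the next step, averaged 210 ± 15.6 TPM in SE, 341 ± 15.7 TPM in AE and 196 ± 8.23 TPM in untreated cells (-0.70, adjusted p = 3.84e-06). PSPH, the last step, averaged 42.2 ± 1.64 TPM in SE and 64.0 ± 3.16 TPM in AE, both above the 26.3 ± 4.59 TPM of untreated cells. Its difference of -0.59 (adjusted p = 0.00389) fell under the fold threshold without SE replicate 1 (-0.57) and without AE replicate 1 (-0.55).

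**Figure D3:**
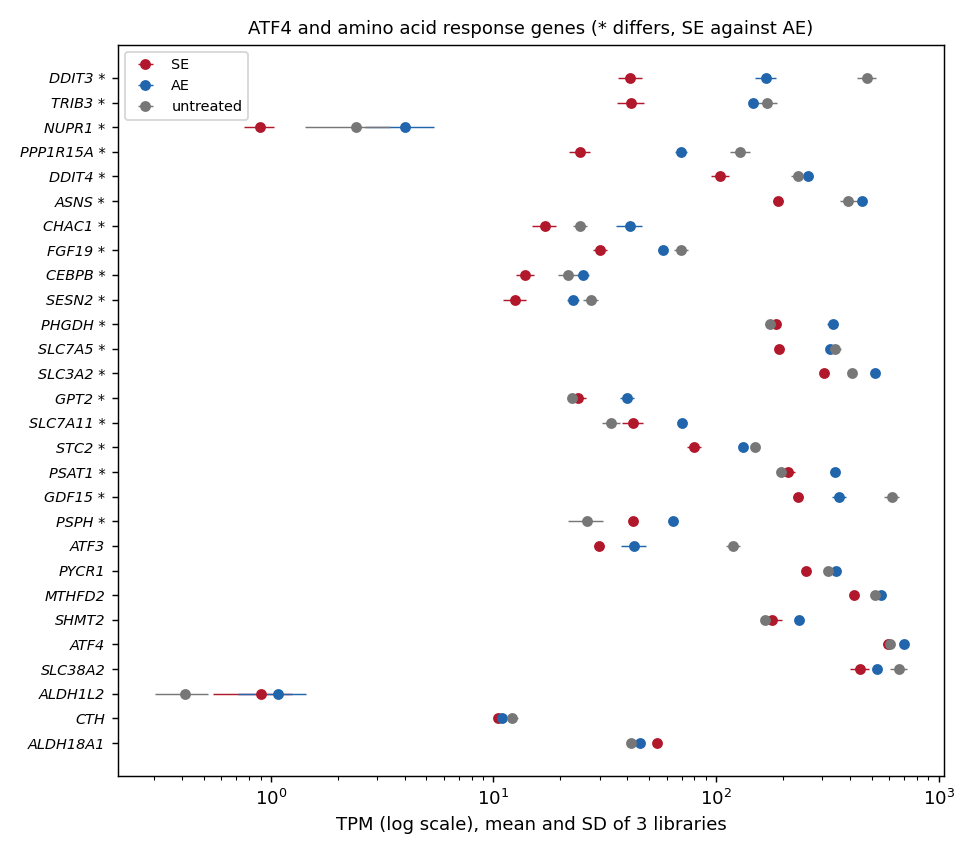
TPM (x axis, log scale) of the 28 measured members of the ATF4 and amino acid response list in SE, AE and untreated cells; points are means and bars SDs of 3 libraries, and asterisks mark the 19 members that differ between SE and AE. The SE mean lies left of the AE mean for all members but ALDH18A1.

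Some cholesterol synthesis genes were higher in SE. INSIG1, which holds the SREBP activator SCAP in the ER and is itself induced by SREBP2 (ENSG00000186480, chromosome 7, 155297776 to 155310235), had 30.2, 33.4 and 34.3 TPM in SE, against 13.8, 13.1 and 14.9 TPM in AE and 14.8 ± 2.55 TPM in untreated cells. AE overlapped the untreated libraries and SE lay above both, with a difference from AE of 1.201 (standard error 0.11, adjusted p = 5.03e-06). HMGCS1, at the entry of the pathway, averaged 73.4 ± 3.36 TPM in SE and 42.8 ± 2.54 TPM in AE (0.77, adjusted p = 9.07e-06). IDI1, the isomerase of isoprenoid units, differed by 0.95 and FDFT1, the squalene synthase, by 0.69 (adjusted p = 6.16e-06 and 2.4e-06). Of 25 measured members, 8 passed (32.0%, beside 4.72% of all genes tested), all higher in SE (8 or 9 with 1 library left out). The median was 0.48, and 23 lay above 0, as did 7728 of the 14899 genes tested. All 8 passed above untreated cells with SE and 1 of them with AE. Among the 289 genes higher in SE, 88.9% did so with SE and 46.0% with AE, and among all genes tested 17.0% and 10.7%. The interval for the SREBF2 transcript was -0.09 to 0.20. FASN, the fatty acid synthase, averaged 155 ± 6.55 TPM in SE and 93.8 ± 6.80 TPM in AE (0.73, standard error 0.10, adjusted p = 0.000282). It was the only 1 of 19 measured genes of fatty acid synthesis to pass (5.26%), near the 4.72% of all genes tested.

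Replication genes stood above the untreated level with both extracts, and 27 of 54 were higher in SE than in AE. PCNA, the sliding clamp of DNA polymerases (ENSG00000132646, chromosome 20, 5114953 to 5126626), had 325, 361 and 367 TPM in SE, against 159, 182 and 190 TPM in AE and 76.9 ± 4.54 TPM in untreated cells. The SE and AE libraries did not overlap, and the difference was 0.99 (standard error 0.08, adjusted p = 1.36e-06). PCLAF, which binds PCNA, had 75.5, 138 and 142 TPM in SE and 39.0, 49.9 and 59.3 TPM in AE, a difference of 1.22 (standard error 0.24, adjusted p = 0.00297), with SE replicate 1 well below the others. RRM1 and RRM2, the subunits of ribonucleotide reductase, differed by 0.87 and 0.72, ORC1, of the origin recognition complex, by 0.85, and GINS2, of the replicative helicase, by 0.85 (adjusted p from 7.61e-07 to 1.31e-05). Among the E2F genes, E2F2 differed by 0.70 (adjusted p = 0.002), while E2F1, at 16.3 ± 0.910 TPM in SE and 12.3 ± 1.01 TPM in AE, differed by 0.40, under the fold threshold (adjusted p = 0.00381). Of the 54 measured members of the list, 27 were higher in SE and none lower, the median was 0.58, and all 54 lay above 0. Against untreated cells 54 passed upward with SE and 52 with AE, beside 17.0% and 10.7% of all genes tested. With quantile normalization 19 were higher, and with 1 library left out between 21 (without AE replicate 1) and 29 (without AE replicate 3).

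Some mitotic genes were higher in SE. ANLN, a scaffold of the cleavage furrow, averaged 70.4 ± 1.71 TPM in SE and 43.2 ± 4.67 TPM in AE (0.70, adjusted p = 1e-04), KIF20B, a kinesin of the midzone, differed by 0.76 (adjusted p = 0.00144) and CDK1, the kinase of mitotic entry, by 0.65 (adjusted p = 8.01e-05), or 0.54 with quantile normalization. Of 50 measured members 8 were higher in SE and none lower, with a median of 0.41, but 4 were with median-ratio scaling and 2 with quantile normalization. ESCO2, which acetylates cohesin in S phase, had 30.4, 27.7 and 26.2 TPM in SE, against 12.5, 8.56 and 13.7 TPM in AE, a difference of 1.26 (adjusted p = 0.000164). Cell cycle phases were not measured here.

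**Figure D4:**
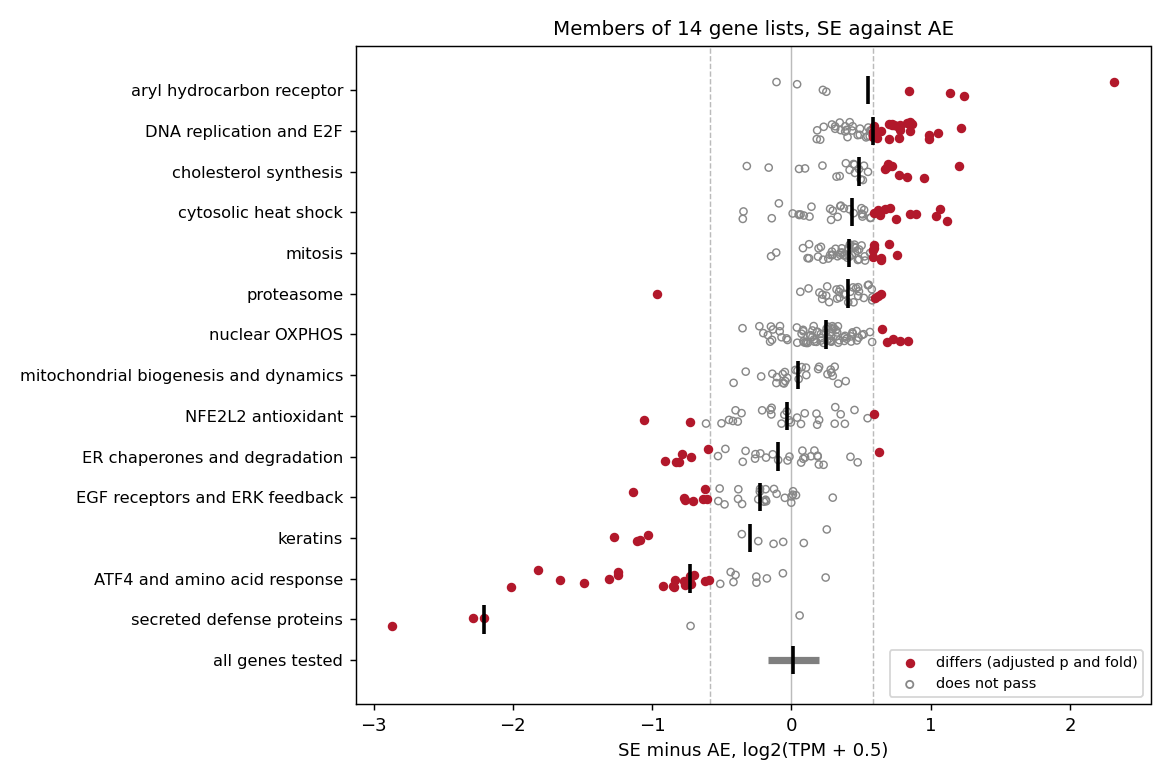
Log2 difference, SE minus AE (x axis), of each measured member of 14 gene lists; filled points pass both thresholds, open ones do not, dashed lines mark the fold threshold of 1.5 and black bars the list medians, with the median and quartiles of all genes tested at the bottom. Replication members all lie right of 0 and all ATF4 members but 1 lie left of it, while the mitochondrial biogenesis and antioxidant lists are centred near 0.

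Of 5 measured secreted defense proteins, 3 were lower in SE, beside 2.78% of all genes tested. LCN2, a lipocalin that binds iron carriers of bacteria (ENSG00000148346, chromosome 9, 128149071 to 128153453), had 2.66, 3.15 and 3.28 TPM in SE, against 23.9, 28.9 and 23.1 TPM in AE and 55.9 ± 3.30 TPM in untreated cells, a difference of -2.87 (standard error 0.10, adjusted p = 1.58e-09). SLPI, an inhibitor of leukocyte proteases, had 2.42, 2.78 and 3.14 TPM in SE and 11.6, 16.6 and 16.1 TPM in AE, with 15.9 ± 1.77 TPM in untreated cells (-2.21, adjusted p = 3.25e-07). SERPINA3, an acute-phase protease inhibitor, had 0.63, 0.28 and 0.58 TPM in SE, against 4.58, 4.72 and 3.65 TPM in AE and 2.57 ± 0.256 TPM in untreated cells (-2.28, standard error 0.17, adjusted p = 9.18e-07). It passed the thresholds against untreated cells in opposite directions, below them with SE and above them with AE. Of 24 measured genes of NF-kB subunits, inhibitors and targets, chemokines included, 3 were lower in SE, all among the 12 targets. With the 1 higher gene, 16.7% of the 24 passed, beside 4.72% of all genes tested. PLAU, the urokinase, was at 35.8 ± 4.02 TPM in SE and 98.5 ± 11.5 TPM in AE (-1.45, adjusted p = 2.26e-07). The chemokine CXCL3 was at 0.337 ± 0.107 TPM in SE and 1.55 ± 0.405 TPM in AE (-1.28, adjusted p = 0.00138). An inhibitor was the 1 gene higher in SE (adjusted p = 0.0497), and the call was lost in most other settings. No gene was higher with median-ratio scaling, a pseudocount of 0.1, no filter on low values, array weights or no mean-variance trend. The same held with any 1 SE or AE library left out, except SE replicate 2.

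RBCK1, a subunit of the ubiquitin ligase that builds linear chains in NF-kB signalling (ENSG00000125826, chromosome 20, 407498 to 432139), had 45.7, 47.4 and 44.5 TPM in SE, against 215, 185 and 172 TPM in AE and 252 ± 9.11 TPM in untreated cells. SE stood apart from both, with a difference from AE of -2.04 (standard error 0.07, adjusted p = 1.58e-09). IL20RB, a subunit of the receptors for interleukins of the IL-20 family, averaged 3.97 ± 1.18 TPM in SE and 19.6 ± 1.12 TPM in AE (-2.20, adjusted p = 3.67e-07), and SPX, the peptide hormone spexin, 0.603 ± 0.403 TPM in SE and 5.12 ± 1.06 TPM in AE (-2.39, adjusted p = 9.72e-06). UPP1, the uridine phosphorylase, averaged 18.8 ± 1.84 TPM in SE and 65.6 ± 5.89 TPM in AE (-1.78, adjusted p = 3.25e-07). SNHG32, a host transcript of small nucleolar RNAs, had 127, 159 and 148 TPM in SE and 482, 534 and 461 TPM in AE (-1.77, adjusted p = 3.2e-08). KLF2, a Krüppel-like transcription factor, differed in another way: it had 3.16, 3.42 and 2.89 TPM in SE, against 13.3, 9.53 and 14.9 TPM in AE and 3.38 ± 0.728 TPM in untreated cells, so that SE stood at the untreated level and AE above it (-1.82, standard error 0.19, adjusted p = 2.57e-05). ARRDC4, an arrestin-like gene that responds to glucose, averaged 3.13 ± 0.0709 TPM in SE and 10.1 ± 2.95 TPM in AE, both above the 0.937 ± 0.317 TPM of untreated cells (-1.50, adjusted p = 0.000222).

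Some genes of growth factor signalling and some keratins were lower in SE. DUSP5, a phosphatase that ERK induces and that acts on it, had 38.6, 44.3 and 45.3 TPM in SE, against 94.8, 94.6 and 94.3 TPM in AE and 584 ± 57.3 TPM in untreated cells (-1.14, standard error 0.09, adjusted p = 2.77e-06). ERRFI1, an inhibitor of the EGF receptor, differed by -0.77, the receptor kinase EPHA2 by -0.71, and the EGF receptor ligands AREG and HBEGF by -0.76 and -0.64 (adjusted p from 2.52e-06 to 0.000252). EGFR itself averaged 19.3 ± 0.746 TPM in SE and 20.8 ± 1.33 TPM in AE, with an interval of -0.26 to 0.05. Of 29 measured members of the list, 7 were lower in SE and none higher, with a median of -0.23. Of 10 measured keratin genes 4 were lower. KRT80 averaged 3.76 ± 0.194 TPM in SE and 9.82 ± 0.744 TPM in AE (-1.27, adjusted p = 6.58e-07), and KRT7 17.0 ± 2.05 TPM in SE and 35.5 ± 6.93 TPM in AE (-1.03, adjusted p = 5.34e-05). The other 2, hair keratins with means of less than 1 TPM in SE and AE, are close copies of each other between which reads can be split. LAMB3, a chain of the laminin of epithelial basement membranes, differed by -1.07 (adjusted p = 4.96e-06). The receptor kinase AXL differed by -0.92 (adjusted p = 4.09e-07), with both treated means below the untreated one. KLF4, a factor of epithelial differentiation, averaged 9.15 ± 0.694 TPM in SE, 17.7 ± 1.16 TPM in AE and 41.3 ± 2.51 TPM in untreated cells (-0.92, adjusted p = 3.21e-06).

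Some secreted and metabolic genes were higher in SE. DKK1, a secreted inhibitor of WNT receptors (ENSG00000107984, chromosome 10, 52314281 to 52318042), had 103, 91.1 and 103 TPM in SE, against 40.8, 28.5 and 29.7 TPM in AE and 214 ± 10.1 TPM in untreated cells (1.59, standard error 0.11, adjusted p = 5.15e-07). Here it was AE that lay further below the untreated level. AXIN2, a feedback inhibitor induced by WNT signals, averaged 12.01 ± 0.431 TPM in SE, 7.46 ± 0.638 TPM in AE and 3.06 ± 0.608 TPM in untreated cells (0.65, adjusted p = 0.0014). DKK1 and AXIN2 were the 2 of 22 measured genes of the pathway that passed (9.09%, beside 4.72% of all genes tested). ALDH1A3, an enzyme of retinoic acid synthesis, had 496, 437 and 416 TPM in SE, against 189, 164 and 184 TPM in AE and 245 ± 25.02 TPM in untreated cells, which lie between them (1.32, standard error 0.08, adjusted p = 2.84e-07). HAS3, a hyaluronan synthase, averaged 68.5 ± 4.33 TPM in SE and 28.6 ± 1.01 TPM in AE (1.24, adjusted p = 2.55e-07). FGFBP1, a carrier of fibroblast growth factors, averaged 10.7 ± 0.558 TPM in SE and 3.61 ± 0.547 TPM in AE (1.46, adjusted p = 5.31e-06). TFRC, the transferrin receptor, averaged 222 ± 6.75 TPM in SE and 124 ± 8.01 TPM in AE (0.84, adjusted p = 1.2e-06). It was the only 1 of 10 measured genes of iron handling to pass, beside 4.72% of all genes tested.

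The study followed mitochondria in these cells. Of the genes it measured as proteins that are described next, PPARGC1A could not be tested and none of the others passed between SE and AE. PPARGC1A, the coactivator PGC-1α, was listed at 0 in the SE libraries and at 0 to 0.05 TPM in the AE libraries, below the filter, and was not tested. None passed of the 27 measured genes of mitochondrial biogenesis and dynamics, whose median was 0.04. As only 4.72% of all genes tested passed, this absence says little about so short a list. The 95% intervals were -0.11 to 0.20 for MFN1 and -0.21 to 0.09 for MFN2, which fuse mitochondria, -0.06 to 0.17 for MFF, a fission factor, -0.31 to 0.04 for TOMM20, an import receptor, -0.23 to 0.16 for PPARG, the nuclear receptor, and -0.18 to 0.07 for FOXJ3. TFAM, which packs and transcribes mitochondrial DNA, averaged 53.02 ± 1.12 TPM in SE, 41.9 ± 1.95 TPM in AE and 27.7 ± 2.48 TPM in untreated cells, a difference of 0.34 (adjusted p = 0.0332), under the fold threshold. Of 76 nuclear genes of the respiratory chain, 5 were higher in SE and none lower (6.58%, beside 4.72% of all genes tested). Their median was 0.25 (3 higher and a median of 0.13 with quantile normalization). Among the 5 higher genes were ATP5MC1, of the ring of ATP synthase, at 574 ± 22.7 TPM in SE and 322 ± 25.3 TPM in AE (0.84, adjusted p = 3.54e-06), and NDUFB3 and NDUFA2, of complex I, which differed by 0.78 and 0.73 (adjusted p = 1.26e-06 and 5.88e-05). The study measured other subunits of the chain as proteins, and their transcripts are not described singly here. Of the 13 protein genes of the mitochondrial genome, 1 passed (7.69%, beside 4.72% of all genes tested). It was MT-ND6, coded on the light strand, with 1380, 1323 and 1404 TPM in SE, against 674, 892 and 858 TPM in AE (0.77, standard error 0.09, adjusted p = 4.24e-05).

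Genes of protein turnover were mixed. Of 33 proteasome genes and their regulators, 3 were higher in SE and 1 lower (12.1%, beside 4.72% of all genes tested), with a median of 0.41. With quantile normalization none was higher and 1 was lower. The lower one was NFE2L1, the transcription factor that induces proteasome subunits, at 87.9 ± 17.6 TPM in SE and 172 ± 27.0 TPM in AE (-0.97, adjusted p = 0.000522). MAP1LC3B, which marks autophagosomes, had 47.1, 58.0 and 55.0 TPM in SE, against 117, 122 and 124 TPM in AE and 151 ± 7.03 TPM in untreated cells (-1.18, standard error 0.08, adjusted p = 3.29e-07).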

How the data were processed

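HCT116 libraries were sequenced from poly(A) RNA in 5 groups of 3. Expression was deposited by the authors as TPM per Ensembl gene. STAR, RSEM and GRCh38 are named in the submitters' processing notes, and no source used here states their versions. The authors' own count-based test was not rerun, because TPM are not counts. GENCODE 44 named 60463 of 60664 IDs.

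Here log2(TPM + 0.5) of genes that reached 1 TPM in 3 or more libraries was fitted with limma 3.58.1 (R 4.3.3), 5 group means and a mean-variance trend in a single fit, with contrasts SE minus AE and each against untreated. Adjusted p-values are Benjamini-Hochberg over all 14899 genes tested. Intervals are 95% intervals of the log2 difference. Shares were compared by exact permutation (scipy 1.17.1, numpy 2.4.6, pandas 2.3.3, Python 3.11.15), and figures drawn with matplotlib 3.10.9. The scripts were tested on simulated data. No libraries were identical. Promoters came from RefSeq, GRCh38.p14.

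Named genes were the 15 largest non-overlapping differences each way with a mean of 5 TPM in the higher group, up to 6 differing members of each list by adjusted p with the list's regulators, genes past the thresholds against untreated in opposite directions, and mitochondrial genes measured as proteins. Not all of these are described, and some genes are not reported here. PHGDH, PSAT1, PSPH, NQO1, HMOX1 and HSPH1 were named after their values were seen. Members and lists were chosen with earlier results of these data known. Alternatives varied pseudocount, filter, scaling, libraries, model, length and GC correction, replicate block and the title codes.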

Additional observations from a re-analysis of the deposited data

Results flagged for a closer look

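In 3 genes SE and AE passed the thresholds against untreated cells in opposite directions, and the difference between the extracts itself passed in limma. SERPINA3 averaged 0.497 ± 0.189 TPM in SE and 4.32 ± 0.582 TPM in AE, against 2.57 ± 0.256 TPM in untreated cells (SD, n = 3 each), with a log2 difference between SE and AE of -2.28 (adjusted p = 9.18e-07). ENSG00000260953, a gene without a symbol on chromosome 16, averaged 0.0933 ± 0.162 TPM in SE and 2.03 ± 0.697 TPM in AE, a difference of -2.09 (adjusted p = 0.00114). ENSG00000286602, also without a symbol, on chromosome 3, averaged 2.95 ± 1.10 TPM in SE and 0.773 ± 0.210 TPM in AE, a difference of 1.40 (adjusted p = 0.00157).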

How the results depend on the processing

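The count of 703 differing genes ranged between 514 (mean of at least 5 TPM) and 748 (pseudocount 0.1) under other pseudocounts, filters, scalings and models, and without 1 library of SE or AE at a time between 620 and 709 (239 to 295 higher, 347 to 418 lower). Quantile normalization gave 640 and median-ratio scaling 692. Of the 81 differing genes described, quantile normalization took CALR, CCT8 and CDK1 under the thresholds, removal of the length and GC trend CCT8, array weights PSPH, and a pseudocount of 0.1 or no filter AHRR. Leaving out a library took AHRR under in each case, and PSPH without SE or AE replicate 1, while XBP1 passed without SE replicate 2 (-0.60). Mitotic genes fell to 4 and 2 higher members with median-ratio and quantile scaling, and proteasome genes to 2 and 0.

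With the replicate number as a block, 672 genes differed (273 higher, 399 lower), and none of the 81 calls changed. Deviations of same-numbered SE and AE libraries correlated at 0.261, 0.067 and 0.044, and those of differently numbered ones at -0.191 to 0.134. SE replicates 1 and 2 correlated best with the AE library of the same number, SE replicate 3 with AE replicate 2 (0.134). Whether the numbers pair the libraries cannot be told from so few values.

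With the columns that the title codes would give (those used for Tuscany), 13 genes differed from AE (5 higher, 8 lower), 3 of them among the 703, and of the log2 differences described 51 that had passed, and that of NQO1, changed sign: CYP1A1 -0.97, AHRR -0.92, CYP1B1 -0.46, TIPARP -0.39, NQO1 -0.7, HSPE1 -0.13, HSP90AA1 -0.17, HSP90AB1 -0.13, HSPD1 -0.18, CCT8 -0.15, CALR -0.05, PCNA -0.19, RRM1 -0.18, RRM2 -0.33, ORC1 -0.18, GINS2 -0.11, PCLAF -0.44, E2F2 -0.11, CDK1 -0.35, ANLN -0.24, KIF20B -0.19, AXIN2 -0.09, ALDH1A3 -0.09, HAS3 -0.27, ESCO2 -0.37, TFRC -0.33, NDUFB3 -0.06, ATP5MC1 -0.04, NDUFA2 -0.07 and MT-ND6 -0.18 below 0, and HSPA5 0.27, HYOU1 0.07, SEL1L 0.02, DDIT3 0.11, LCN2 0.82, SLPI 0.16, PLAU 0.2, DUSP5 0.12, ERRFI1 0.05, EPHA2 0.07, AREG 0.09, HBEGF 0.06, KRT7 0.19, AXL 0.14, LAMB3 0.02, KLF4 0.09, RBCK1 0.25, IL20RB 0.11, SPX 0.46, SNHG32 0.33, ARRDC4 0.01 and NFE2L1 0.19 above it. Described genes that passed neither in the main setting nor with the title codes were not checked for a change of sign. The titles name Sicily in words for the libraries used as SE, and the values of their columns equal those of the SE columns in the supplementary table in all 1539 genes compared. The depth of each library is unknown, so which low genes it limits could not be judged, and 3 libraries a group bound the precision of every value.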

Other observations

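Among 37 measured genes of glycolysis and the hypoxia response, 2 were higher in SE than in AE and 3 lower, with a median log2 difference of 0.09. Of 25 interferon and MHC class I genes 1 was higher, and of 29 genes of ribosome biogenesis 1 was higher, with medians of -0.03 and 0.15. None of 8 measured metallothionein and zinc transport genes passed, with values between -0.31 and 0.56. Of 19 measured genes of the mesenchymal state and invasion 2 were higher and 3 lower, and of 10 genes of intestinal identity 1 was higher and 1 lower. Over all genes tested 4.72% passed.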
